A study of Zea mays with 4 samples.

Results

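The GDSL esterase and lipase group of maize was taken as every gene whose KEGG Orthology annotation in the deposited tables held the term K01206, or whose description from the NCBI protein database named GDSL. This gave 91 genes of the 34567 listed in any library, 86 of them by K01206 and 17 by the description, with 12 meeting both criteria. RNA-seq was done on endosperm, which stores starch and protein in the kernel, 10 days after pollination. The mutant group, labelled dek, and the wild-type group, labelled WT, had 2 pooled libraries each, A and B, with 8 to 10 individuals in a pool and pools drawn from 2 segregating ears. The labels name neither the mutated gene nor the parental line, so the genotype could not be checked by its own transcript, nor do they tie pools to ears. Estimated counts summed to between 13119658 and 14776699 per library.

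GDSL proteins are named for a Gly-Asp-Ser-Leu motif around the catalytic serine, and they belong to the SGNH hydrolases, whose conserved residues lie in separate sequence blocks. Plants hold large families of them, most with a signal peptide for secretion. They cleave or transfer acyl groups on lipids, cutin monomers and polysaccharides. The cutin synthase of tomato fruit is a GDSL protein. Several GDSL lipases of Arabidopsis affect seed oil content. An Arabidopsis enzyme of this family is also described as an alpha-fucosidase acting on xyloglucan, the hemicellulose that coats cellulose in the primary wall.

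The orthology term and the protein descriptions named these genes differently. KEGG calls K01206 an alpha-L-fucosidase, a glycosidase that removes fucose. Of the 86 genes with this term, 7 were described as alpha-L-fucosidase, 12 as GDSL esterase/lipase, 1 as a GSDL-motif lipase, 11 as anther-specific proline-rich protein APG and 6 as esterase. A further 2 were described as desiccation-related protein PCC13-62, 1 as Zea nodulation homolog1 and 1 as ache, a maize acetylcholinesterase. The remaining 45 had no informative description (uncharacterized, hypothetical or unknown). The gene ontology terms in the tables gave hydrolase activity for 72 of the 91 members, action on ester bonds for 16, fucosidase activity for 4 and lipase activity for 1. K01206 was seldom the single orthology term, and 77 of the 86 genes carried others beside it, such as kinesin K10396 on 40, zeta-carotene desaturase K00514 on 35 and beta-glucosidase K01188 on 32. These companion terms are used here as labels of sub-groups, not as functions. All 11 genes described as APG fell in the sub-group with K01188 and all 6 described as esterase in that with K00514.

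As a whole the group took a like share of the transcriptome in both genotypes. Member FPKM (fragments scaled to gene length and to the counted fragments of the library) summed to 414.57 and 318.01 in dek A and B, against 336.54 and 320.27 in WT A and B. Their share of all counts was 0.0637% and 0.0517% in dek A and B, against 0.0558% and 0.0539% in WT A and B. The ranges of the genotypes overlapped in both measures. Most members were low: the mean over the 4 libraries was under 1 FPKM for 44 genes, between 1 and 10 for 37 and 10 or more for 10. In dek, 41 and 38 members exceeded 1 FPKM in libraries A and B, against 45 and 42 in WT. Of the 91 genes, 59 were listed in all 4 libraries, 10 in dek alone and 4 in WT alone. Over all genes, 26785 of 34567 were listed in all 4 libraries, and the shares listed in dek or WT alone were not counted. Each dek library listed more genes (31509 in A and 31098 in B) than either WT library (30452 in A and 29569 in B). Of the 10 members in dek alone, 1 had enough counts to be tested, and of the 4 in WT alone, 0.

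Single members differed between the genotypes far more than the sum. Of the 58 members with enough counts to be tested, 8 were higher and 18 lower in dek at an adjusted p under 0.05 (edgeR quasi-likelihood test with Benjamini-Hochberg adjustment over all 24624 genes tested). That is 13.8% of members higher, against 7.98% of all genes tested, and 31.0% of members lower, against 8.85% of all genes tested. In either direction it is 44.8% of the members, against 16.8% of all genes. The fitted difference, on the TMM scale, reached 2-fold in 7 of the higher and 17 of the lower members. The median log2 fold change of the 58 was -0.24, beside 0.012 over all genes tested; with scaling to total counts alone, which moves all log2 fold changes up by a median of 0.307, the members' median was 0.07. With that scaling 9 members were higher and 16 lower, while the calls over all genes became 4502 higher and 1279 lower, against 1965 and 2178 with TMM. In none of the 26 called members did the FPKM ranges of dek and WT overlap. A call with 2 libraries per genotype favours such separation, and its share among all called genes was not counted. The count of calls depended on single libraries. Leaving out any library lowered the counts of higher and of lower calls, among the members and over all genes tested alike. The drop was largest without dek A or dek B, so it is not particular to the members. The members' median log2 fold change was -0.32 without dek A, -0.28 without dek B, -0.04 without WT A and -0.34 without WT B. At an unadjusted edgeR p under 0.05 the fit without dek A had 8 higher and 19 lower members, against 11 and 24 with all libraries.

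The filter on low counts bears on these shares. The 33 members not tested had at most 0.95 FPKM in any library. Of the tested members, 51 were past the filter's count cutoff in at least 1 library of each genotype. Of these, 7 were higher (13.7%) and 13 lower (25.5%) in dek. Over all genes tested, by whichever route they passed, the shares were 7.98% and 8.85%. The share among all genes past the cutoff in at least 1 library of each genotype was not counted. A further 5 were past it in WT libraries alone, all of them called lower, and 2 in dek libraries alone, of which 1 was called higher. The filter asks for 2 libraries, so some of the 51 also entered through the genotype in which they are high. Among the calls, GRMZM2G116386 and GRMZM2G117754 met the cutoff in both dek libraries but 1 WT library. GRMZM2G384780, GRMZM2G075290 and GRMZM2G116360 met it in both WT libraries but 1 dek library. In bulk RNA, fewer cells of a type and less RNA per cell cannot be told apart, here and in every comparison that follows.

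**Figure D1:**
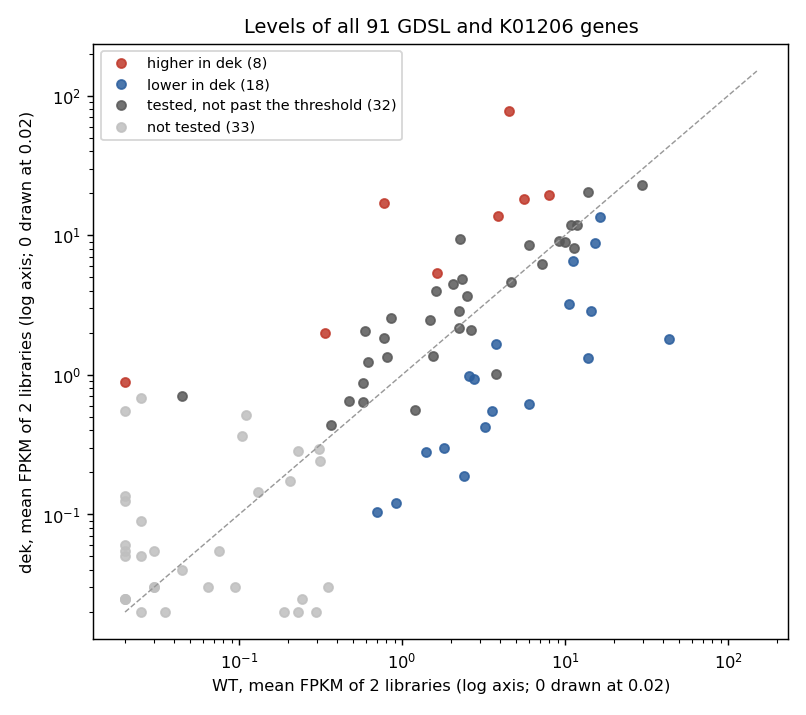
Mean FPKM of each of the 91 members in dek (vertical) and WT (horizontal) over 2 libraries each, both axes logarithmic, with a dashed line of equality and values of 0 drawn at 0.02. The 8 red genes are higher and the 18 blue genes lower in dek in the edgeR test, and the red point farthest up is GRMZM2G166234 with 77.7 FPKM in dek and 4.55 in WT.

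The most abundant member changed between the genotypes. In dek it was GRMZM2G166234, an uncharacterized precursor protein, with 104.02 and 51.38 FPKM in dek A and B, against 7.16 and 1.94 in WT A and B. It ranked 21st in WT by mean FPKM. It made up 25.1% and 16.2% of the summed member FPKM in dek A and B, against 2.13% and 0.606% in WT A and B. The libraries of dek lay above those of WT, and within each genotype A was above B. Its log2 fold change was 3.76 ± 0.609 (SE), a 13.5-fold rise (edgeR, Benjamini-Hochberg adjusted p = 0.0164). Fitted folds are on the TMM scale and therefore differ somewhat from the plain ratio of FPKM values. Without dek A the log2 fold change was 3.18 and the call was lost (edgeR quasi-likelihood adjusted p = 0.0820), and it ranged up to 5.0 without WT A.

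In WT the most abundant member was GRMZM2G085260, described as desiccation-related protein PCC13-62, a name taken from a protein of the resurrection plant Craterostigma plantagineum that accumulates on drying. It had 0.83 and 2.81 FPKM in dek A and B, against 47.59 and 39.48 FPKM in WT A and B. Its share of the summed member FPKM was 0.2% and 0.884% in dek, against 14.1% and 12.3% in WT. It ranked 35th in dek. The log2 fold change was -4.88 ± 0.486 (SE), the largest fall among the members by fitted fold (edgeR, Benjamini-Hochberg adjusted p = 0.00520). The call held without any 1 library, with log2 fold changes of -6.05 to -4.24. The name PCC13-62 does not denote an esterase or lipase, and the gene is here through its orthology term alone. The other gene of that description, GRMZM2G138937, was listed in WT alone, at 0.09 and 0.29 FPKM in WT A and B, and was too low to test.

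Genes whose description names GDSL or the GSDL motif were mostly near the floor of detection. Of the 18, 6 were tested, and the median of their mean FPKM over 4 libraries was 0.1. The single call was GRMZM2G073770, the GSDL-motif lipase, with 0.93 and 1.04 FPKM in dek A and B, against 2.81 and 2.37 in WT A and B. Its log2 fold change was -1.74 ± 0.368 (SE; edgeR, Benjamini-Hochberg adjusted p = 0.0310), and the call was lost without any 1 library, where the edgeR adjusted p ranged from 0.0509 without WT B to 0.154 without dek A. None of the 5 tested genes of the 17 matched by the letters GDSL passed in edgeR, in DESeq2 or in limma over the 4 libraries, and 0 had an unadjusted edgeR p under 0.05. The highest of them, GRMZM2G069503 (At5g45910-like), had 8.65 and 10.24 FPKM in dek A and B, against 4.35 and 0.16 in WT A and B. Its dek libraries lay above those of WT, but the WT libraries differed 27.2-fold (edgeR, Benjamini-Hochberg adjusted p = 0.271). Without WT A it passed as higher, with a log2 fold change of 5.52 (edgeR adjusted p = 0.00189), against 0.81 without WT B (edgeR adjusted p = 0.124). GRMZM2G048200 (At1g09390-like) had 5.31 and 4.36 FPKM in dek, against 2.78 and 1.89 in WT (edgeR quasi-likelihood adjusted p = 0.150). GRMZM2G173472, like the dehydration-responsive CPRD49 of cowpea by its name, had 1.17 and 1.54 FPKM in dek, against 1.93 and 1.15 in WT, so its ranges overlapped. GRMZM2G132331 (At5g55050-like) was below the filter with 21 counts over the dek libraries and 0 over the WT libraries, which is at least 5.31-fold higher in dek against a floor of 3 counts over the WT group.

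The 7 genes described as alpha-L-fucosidase included 3 that were tested and 1 that fell. GRMZM2G074517 (alpha-L-fucosidase 2) had 3.37 and 3.05 FPKM in dek A and B, against 9.27 and 12.01 FPKM in WT A and B. Its log2 fold change was -2.03 ± 0.222 (SE; edgeR, Benjamini-Hochberg adjusted p = 0.00621), and the call held without any 1 library, with adjusted p up to 0.0488. Both alpha-L-fucosidase 1 genes that were tested are among the 4 members whose ontology term is fucosidase activity, and neither passed. GRMZM2G013255 had 1.71 and 1.97 FPKM in dek, against 0.92 and 0.63 in WT (edgeR quasi-likelihood adjusted p = 0.173). GRMZM2G019783 had 0.84 and 0.91 FPKM in dek, against 0.44 and 0.72 in WT (edgeR quasi-likelihood adjusted p = 0.712). In both genes both dek values lay above both WT values. A second alpha-L-fucosidase 2 gene, GRMZM5G873767, had 0 counts over the dek libraries and 12 over the WT libraries, which is at least 5.27-fold lower in dek against a floor of 3 counts over the dek group. Another, GRMZM2G047129, had 1 count in dek and 14 in WT, an 18.4-fold ratio in favour of WT whose exact 95% interval for counting error runs from 2.81 to 780. Floors, like these intervals, cover counting error only, and neither gene was tested.

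APG was first described from anthers of Brassica and Arabidopsis as a proline-rich protein, and the name has been carried over to similar proteins in other plants. Of the 11 genes so described, 5 were tested, 2 fell and 0 rose. GRMZM2G116360 had 0.63 and 0.21 FPKM in dek A and B, against 3.22 and 3.19 in WT A and B, with a log2 fold change of -3.21 ± 0.540 (SE; edgeR, Benjamini-Hochberg adjusted p = 0.0177). The call was lost without dek B, where the edgeR adjusted p was 0.0678. GRMZM2G062577, the most abundant of the APG genes, had 12.83 and 14.14 FPKM in dek, against 16.47 and 16.26 in WT. Its log2 fold change was -0.58 ± 0.144 (SE), and its edgeR quasi-likelihood adjusted p of 0.0458 stood close to the threshold. That call was lost with total-count scaling, with limma, without the low-count filter and without any 1 library, where the edgeR adjusted p ranged from 0.110 without WT A to 0.195 without dek A. GRMZM2G017869 had 0.75 and 0.66 FPKM in dek, against 0.09 and 0 in WT, or 30 counts against 2, an 11.4-fold ratio whose exact 95% interval for counting error runs from 2.89 to 98.3. It passed the low-count filter through dek alone and was not called (edgeR quasi-likelihood adjusted p = 0.0680), though it was with limma on log2 FPKM and in edgeR with total-count scaling (adjusted p = 0.0445). GRMZM5G862317, at 5.4 and 7.0 FPKM in dek and 6.59 and 7.86 in WT, overlapped between the genotypes.

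Of the 6 genes described simply as esterase, 3 were tested and 1 rose. GRMZM2G112686 had 15.89 and 11.39 FPKM in dek A and B, against 3.99 and 3.72 in WT A and B. Its log2 fold change was 1.51 ± 0.229 (SE; edgeR, Benjamini-Hochberg adjusted p = 0.0136), and the call was lost without dek A (edgeR adjusted p = 0.0911). GRMZM2G170646 had 3.36 and 1.73 FPKM in dek, against 0.90 and 0.81 in WT, and did not pass (edgeR quasi-likelihood adjusted p = 0.114). GRMZM2G004835, at 9.62 and 8.31 FPKM in dek and 9.41 and 10.49 in WT, overlapped. GRMZM2G087827, below the filter, had 29 counts in dek and 1 in WT, a 22.0-fold ratio whose exact 95% interval for counting error runs from 3.65 to 899.

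The nodulation homolog and ache did not pass. GRMZM2G052562, Zea nodulation homolog1, whose name refers to early nodulins of legumes, lay just outside the threshold. It had 1.28 and 0.74 FPKM in dek A and B, against 5.42 and 2.07 FPKM in WT A and B, with a log2 fold change of -2.18 ± 0.574 (SE; edgeR, Benjamini-Hochberg adjusted p = 0.0535). DESeq2 called it, as did edgeR without WT B (adjusted p = 0.0160). GRMZM6G953609, ache, named for an enzyme that hydrolyses acetylcholine, ranked 3rd among the members in dek, and is 1 of the 4 with the ontology term fucosidase activity. It had 23.27 and 17.77 FPKM in dek, against 15.09 and 12.38 in WT, and its log2 fold change of 0.27 ± 0.224 (SE) did not pass (edgeR quasi-likelihood adjusted p = 0.435). Its dek libraries lay above both WT libraries in FPKM, which carry no TMM scaling.

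Genes without an informative description made up 38 of the 58 members tested, or 65.5%, and held 7 of the 8 higher and 13 of the 18 lower calls. Among the higher ones, GRMZM2G116386 stood nearest to GRMZM2G166234 in its pattern over libraries. It had 25.43 and 8.40 FPKM in dek A and B, against 1.23 and 0.33 in WT A and B. Its log2 fold change was 4.09 ± 0.748 (SE; edgeR, Benjamini-Hochberg adjusted p = 0.0219). The call was lost without dek A (edgeR adjusted p = 0.104), where the log2 fold change was 3.11, against 5.37 without WT A. In the RefSeq annotation of assembly Zm-B73-REFERENCE-NAM-5.0 these 2 members lie near each other with 2 protein-coding genes between them, and the estimated counts of both were whole numbers in all 4 libraries. Within a genotype, both had their higher value in library A. GRMZM2G166234 was 2.02-fold higher in dek A than in dek B, and 3.69-fold higher in WT A than in WT B. GRMZM2G116386 was 3.03-fold higher in dek A than in dek B, and 3.73-fold higher in WT A than in WT B.

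GRMZM2G022279 had 20.32 and 18.77 FPKM in dek A and B, against 6.67 and 9.37 in WT A and B (log2 fold change 0.98 ± 0.198, SE; edgeR quasi-likelihood adjusted p = 0.0277). GRMZM2G071249, a member with K01206 as its single orthology term, had 22.20 and 14.22 FPKM in dek, against 5.71 and 5.41 in WT (1.02 ± 0.209; edgeR quasi-likelihood adjusted p = 0.0287). Both were moderate rises in genes already present in WT. GRMZM2G117754 was rarer, with 2.31 and 1.71 FPKM in dek, against 0.43 and 0.24 in WT (2.25 ± 0.495; edgeR quasi-likelihood adjusted p = 0.0340). GRMZM2G018105 had 4.43 and 6.29 FPKM in dek, against 1.63 and 1.65 in WT, and lay just inside the threshold (1.35 ± 0.344; edgeR quasi-likelihood adjusted p = 0.0491). GRMZM2G012498, which passed the low-count filter through dek alone, had 37 counts over the dek libraries and 0 over the WT libraries, which is at least 9.36-fold higher in dek against a floor of 3 counts over the WT group. Each of these 5 calls was lost without dek A, with edgeR adjusted p from 0.114 to 0.182. All but that of GRMZM2G071249 were also lost without dek B, with edgeR adjusted p from 0.107 to 0.251. Without WT B, GRMZM2G071249 was lost (edgeR adjusted p = 0.0680), as were GRMZM2G117754 (0.0796) and GRMZM2G018105 (0.114). Without WT A, GRMZM2G022279 (0.0506) and GRMZM2G018105 (0.0841) were lost.

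**Figure D2:**
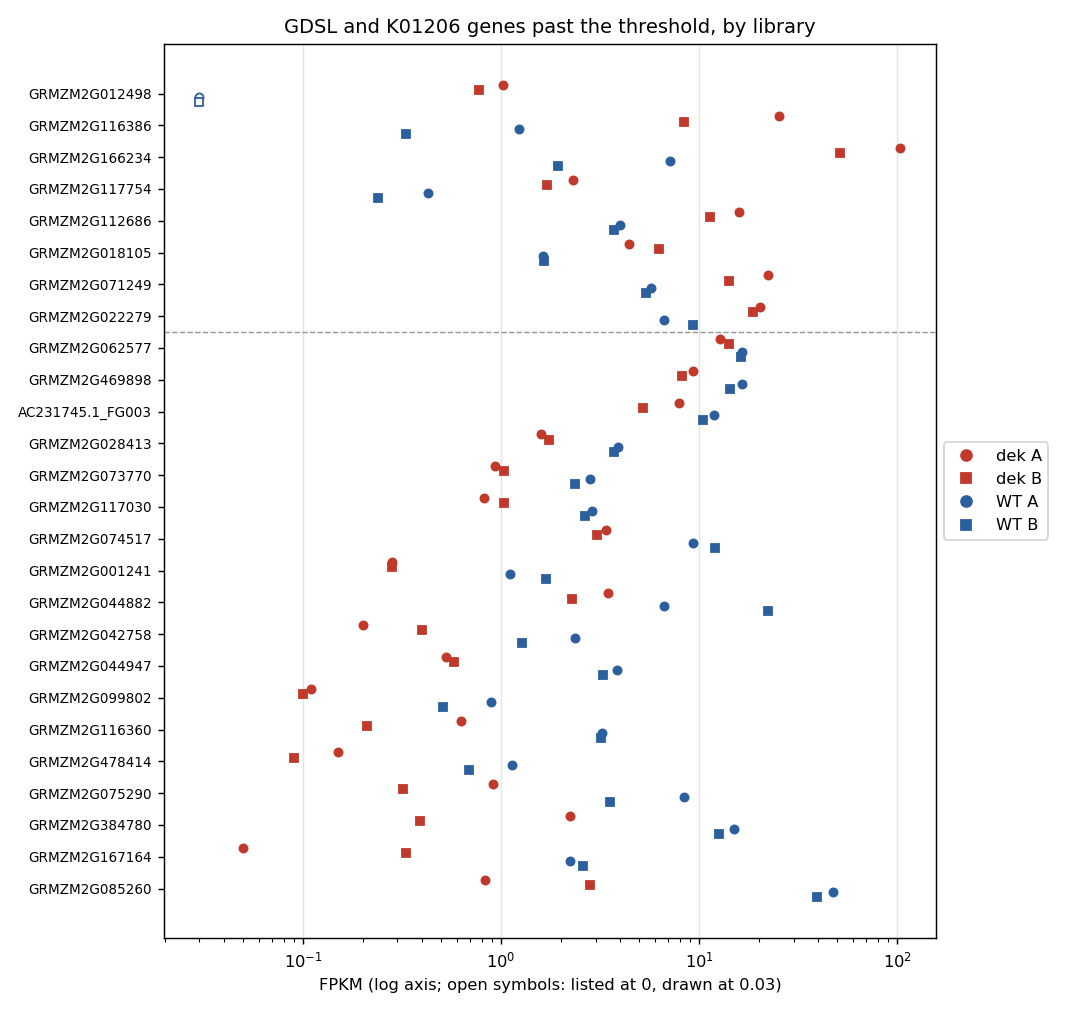
FPKM of the 26 called members in each library on a logarithmic axis, dek above WT in each row, circles for library A and squares for B, ordered by fitted fold change with higher members above the dashed line. In every row both dek symbols lie on one side of both WT symbols, a separation that the choice of called members favours. The top row is GRMZM2G012498, listed at 0 in WT (open symbols at 0.03). The bottom row is GRMZM2G085260, at 0.83 and 2.81 in dek and 47.59 and 39.48 in WT.

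The lower members without an informative description held 3 genes above 10 FPKM in both WT libraries that fell at least 2-fold on the TMM scale. GRMZM2G384780 had 2.23 and 0.39 FPKM in dek A and B, against 15.08 and 12.67 in WT A and B. Its log2 fold change was -3.72 ± 0.630 (SE; edgeR, Benjamini-Hochberg adjusted p = 0.0181), and the call held without any 1 library, with log2 fold changes of -5.42 to -2.98. GRMZM2G469898 had 9.32 and 8.21 FPKM in dek, against 16.46 and 14.26 in WT (-1.11 ± 0.166; edgeR quasi-likelihood adjusted p = 0.0133). AC231745.1_FG003 had 7.93 and 5.21 FPKM in dek, against 11.87 and 10.45 in WT (-1.12 ± 0.244, edgeR quasi-likelihood adjusted p = 0.0335). With total-count scaling its log2 fold change was -0.8, short of 2-fold, and its call was lost (edgeR adjusted p = 0.0694). GRMZM2G044882 had 3.45 and 2.28 FPKM in dek, against 6.66 and 22.26 in WT, so its WT libraries differed widely. Its log2 fold change was -2.64 ± 0.591 (SE; edgeR quasi-likelihood adjusted p = 0.0358), and -1.53 without WT B. GRMZM2G469898 and GRMZM2G044882 lost their calls when either dek library was left out, and AC231745.1_FG003 when any 1 library was, with edgeR adjusted p of 0.0551 to 0.165 over these fits.

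The other unnamed genes that fell were low in dek. GRMZM2G044947 had 0.53 and 0.58 FPKM in dek A and B, against 3.83 and 3.27 in WT A and B (-2.97 ± 0.357; edgeR quasi-likelihood adjusted p = 0.00789). GRMZM2G075290 had 0.91 and 0.32 FPKM in dek, against 8.40 and 3.57 in WT, and GRMZM2G167164 had 0.05 and 0.33 FPKM in dek, against 2.23 and 2.58 in WT. Both fell more than 10-fold, with log2 fold changes of -3.57 and -3.90. GRMZM2G042758 had 0.20 and 0.40 FPKM in dek, against 2.36 and 1.28 in WT, and GRMZM2G001241 had 0.28 and 0.28 in dek, against 1.11 and 1.68 in WT. Smaller falls were those of GRMZM2G117030, with 0.82 and 1.04 FPKM in dek, against 2.89 and 2.64 in WT, and of GRMZM2G028413, with 1.60 and 1.75 in dek, against 3.88 and 3.71 in WT. GRMZM2G478414 stood at 0.15 and 0.09 FPKM in dek, against 1.14 and 0.69 in WT, and GRMZM2G099802 at 0.11 and 0.10 in dek, against 0.89 and 0.51 in WT. GRMZM2G167164, GRMZM2G042758, GRMZM2G001241, GRMZM2G478414 and GRMZM2G099802 are the 5 members past the count cutoff of the filter in WT libraries alone. They entered the test because they are higher there. The log2 fold changes of the genes from GRMZM2G042758 on lay between -3.24 and -1.48, with edgeR adjusted p from 0.0218 to 0.0330. Of the 13 lower genes without a description, GRMZM2G384780 alone kept its call in all 4 fits without 1 library. Without dek A the others had edgeR adjusted p of 0.0622 to 0.182. Without dek B all but GRMZM2G167164 were lost, at 0.0549 to 0.165. Without WT A, GRMZM2G028413, GRMZM2G042758, GRMZM2G478414 and GRMZM2G099802 were lost as well, at 0.0701 to 0.0999, and without WT B GRMZM2G001241, GRMZM2G028413 and GRMZM2G099802, at 0.0503 to 0.0796.

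Among the abundant members that did not pass, GRMZM2G130528 ranked second in both genotypes. It had 19.39 and 26.25 FPKM in dek A and B, against 27.02 and 31.95 in WT A and B, with a log2 fold change of -0.66 ± 0.191 (SE; edgeR, Benjamini-Hochberg adjusted p = 0.0679). DESeq2 called it lower. Its groups did not overlap, but the gap between them was smaller than that between the libraries of either genotype. GRMZM2G159759 had 12.17 and 11.42 FPKM in dek, against 10.37 and 11.45 in WT, and GRMZM2G148867 had 10.52 and 12.97 in dek, against 12.51 and 11.11 in WT. Both overlapped between the genotypes.

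Calls were counted in each sub-group set by the companion orthology terms. Over all genes tested, 7.98% were higher and 8.85% lower, and the median log2 fold change was 0.012. With K01188, the sub-group of the APG genes, 21 were tested, of which 1 rose (4.76%) and 10 fell (47.6%). Their median log2 fold change was -0.58. With K00514, the sub-group of the genes described as esterase, 22 were tested, of which 6 rose (27.3%) and 3 fell (13.6%). Their median was 0.34. With K01206 alone, 6 were tested, of which 1 rose (16.7%) and 2 fell (33.3%), with a median of 0.54. With other terms, 8 were tested, of which 0 rose and 3 fell (37.5%), with a median of -0.17. At an unadjusted edgeR p under 0.05, the counts of higher and lower members were 2 and 12 with K01188, 7 and 7 with K00514, 2 and 2 with K01206 alone and 0 and 3 with other terms, and DESeq2 called 3 genes of the last sub-group. Some of these members entered the test through the genotype in which they are high. No dek library was past the filter's count cutoff for 4 of the 10 falls with K01188 and 1 of the 3 with other terms. No WT library was for 1 of the 6 rises with K00514. Other members were past it in at least 1 library of each genotype. Of these, 1 rose and 6 fell of 16 with K01188, and 5 rose and 3 fell of 21 with K00514. The share of calls among all genes that passed in this way was not counted. These calls still include GRMZM2G384780 and GRMZM2G116360 with K01188, and GRMZM2G116386 and GRMZM2G117754 with K00514. Each met the cutoff in only 1 library of the genotype in which it is low. No test of the difference between sub-groups was made, and the upward shift of 0.307 with total-count scaling applies here too.

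**Figure D3:**
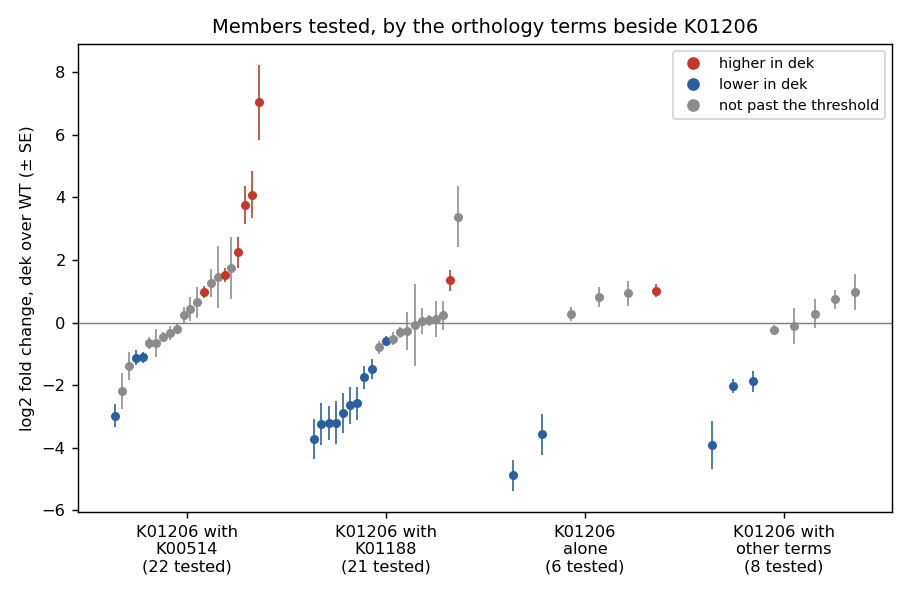
Fitted log2 fold change of dek over WT, with standard error bars, for 57 tested members grouped by the orthology terms they carry beside K01206; red genes are higher and blue genes lower in dek, grey genes did not pass. The sub-group with K00514 holds 6 red and 3 blue points, and that with K01188 holds 1 red and 10 blue points.

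Members that adjoin each other in the RefSeq annotation did not always move alike. The alpha-L-fucosidase 2 gene GRMZM2G074517 and GRMZM2G117030 are adjacent protein-coding genes, and both fell. GRMZM2G012498 and GRMZM2G044947 are also adjacent, and the first was called higher and the second lower. The GSDL-motif gene GRMZM2G073770, which fell, adjoins GRMZM2G073738 (At4g16230-like), which had 0.06 and 0.19 FPKM in dek and was listed at 0 in both WT libraries. The esterase gene GRMZM2G112686, which rose, adjoins GRMZM2G046306 (At1g28590-like), listed at 0.05 FPKM in WT A and at 0 in the other libraries. The estimated counts of the genes of these pairs were whole numbers in all 4 libraries, as were those of 82 of the 91 members and of all 26 called members. Fractional counts, which RSEM gives where reads are divided among genes, occurred in 9 members, none of them called. Neighbours are by gene order in that assembly only, since the sources used here do not give the genome build of the counts.

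Several tissue marker sums also differed between the libraries. The summed FPKM of 12 basal transfer layer markers, genes of the maternal-side layer that imports nutrients, was 7520.8 and 4981.3 in dek A and B, against 2521.6 and 686.3 in WT A and B. None of the 12 was at 0 in any library. Of the 12, 2 passed as higher and 0 as lower, beside 7.98% and 8.85% of all genes tested. At an unadjusted edgeR p under 0.05, 9 were higher and 0 lower, and the median log2 fold change of the 12 was 1.77. Their sum was 1.51-fold higher in dek A than in dek B and 3.67-fold higher in WT A than in WT B. The same ratios were 2.02 and 3.69 for GRMZM2G166234, and 3.03 and 3.73 for GRMZM2G116386. Other members, among them GRMZM2G071249, GRMZM2G112686 and GRMZM2G117754, had the same order of libraries. In these, WT A was 1.06-fold, 1.07-fold and 1.79-fold above WT B. The 30 starchy endosperm markers summed to 4197.3 and 6702.1 FPKM in dek, against 56295.2 and 54093.1 in WT, and all 28 that were tested fell. The 29 embryo markers summed to 262.4 and 276.0 FPKM in dek, against 900.6 and 1056.6 in WT, with 1 of 17 tested higher and 6 lower, and 13 at 0 in at least 1 library. The 4 aleurone markers summed to 305.8 and 295.4 FPKM in dek, against 334.4 and 423.7 in WT, and the 23 green tissue markers to 10.4 and 10.1 in dek, against 8.9 and 7.6 in WT. The part that shifts between cell types had in the members' differences was not tested.

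**Figure D4:**
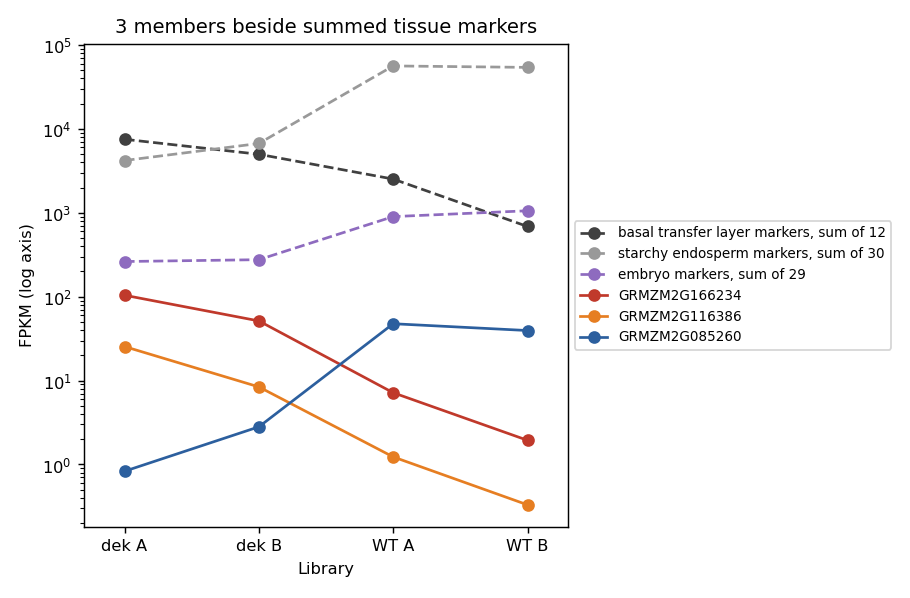
FPKM on a logarithmic axis in the 4 libraries for 3 members (solid lines) and for the sums of 3 marker lists (dashed lines). GRMZM2G166234 and GRMZM2G116386 have their order dek A, dek B, WT A, WT B in common with the basal transfer layer sum, while GRMZM2G085260 is low in dek and high in WT as the starchy endosperm and embryo sums are.

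Genes of related function outside the group were counted in the same way. Among 84 other lipases and esterases, 61 were tested, of which 7 rose and 3 fell, with a median log2 fold change of 0.18. That is 11.5% higher and 4.92% lower, beside 7.98% and 8.85% of all genes tested, and with total-count scaling 13 rose. GRMZM2G321290, a triacylglycerol lipase, which frees fatty acids from storage oil, had 14.65 and 13.80 FPKM in dek A and B, against 2.51 and 1.94 in WT A and B (log2 fold change 2.35 ± 0.213, SE; edgeR quasi-likelihood adjusted p = 0.00405). The carboxylesterase GRMZM2G064967 had 67.19 and 78.00 FPKM in dek, against 34.20 and 40.66 in WT (0.65 ± 0.153; edgeR quasi-likelihood adjusted p = 0.0402). The PIR7B-like esterase GRMZM2G126367 had 24.62 and 12.70 FPKM in dek and was listed at 0 in both WT libraries. Without dek A or dek B, 3 of this list rose and 1 fell, and the call of GRMZM2G064967 was lost without any 1 library (edgeR adjusted p of 0.0510 without WT B to 0.179 without dek B).

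A list for the synthesis of cutin, suberin and wax, the extracellular lipids on which some GDSL enzymes act, took 26 genes by words in their descriptions. A match does not establish that a gene serves this synthesis. Of the 26 genes, 22 were tested, of which 1 rose and 3 fell, with a median of -0.23. These are 4.55% and 13.6%, beside 7.98% and 8.85% of all genes tested. Both genes named here that are described as long chain acyl-CoA synthetase 9, chloroplastic-like, passed, in opposite directions. Such enzymes activate fatty acids. GRMZM2G117064 had 15.33 and 16.59 FPKM in dek, against 43.65 and 42.88 in WT (-1.75 ± 0.122; edgeR quasi-likelihood adjusted p = 0.00224), and GRMZM2G118286 had 29.82 and 22.27 FPKM in dek, against 11.65 and 13.37 in WT (0.75 ± 0.171; edgeR quasi-likelihood adjusted p = 0.0372). The glycerol-3-phosphate acyltransferase GRMZM2G159890, of a family that makes cutin and suberin precursors, had 6.24 and 4.98 FPKM in dek, against 7.90 and 9.33 in WT (-0.93 ± 0.195; edgeR quasi-likelihood adjusted p = 0.0306). The call of GRMZM2G118286 was lost without any 1 library (edgeR adjusted p of 0.0592 without WT B to 0.163 without dek A), and that of GRMZM2G159890 without any but WT A (0.0829 without WT B to 0.137 without dek B).

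A list for building and trimming xyloglucan took 54 genes described with xyloglucan, xylosidase, fucosidase, fucosyltransferase or beta-galactosidase. A match does not establish xyloglucan as the substrate. Of these genes 34 were tested, of which 3 rose and 4 fell, with a median of 0.12. Their shares of 8.82% and 11.8% stood near the 7.98% and 8.85% of all genes tested. The 3 named here are those with the highest levels among the calls. GRMZM2G038281 and GRMZM2G178106 are described as beta-galactosidases, enzymes that remove terminal galactose from glycans. GRMZM2G038281 had 26.77 and 21.63 FPKM in dek, against 58.44 and 40.86 in WT (-1.34 ± 0.208; edgeR quasi-likelihood adjusted p = 0.0145). GRMZM2G417455 had 34.44 and 36.86 FPKM in dek, against 16.66 and 15.60 in WT (0.84 ± 0.122; edgeR quasi-likelihood adjusted p = 0.0125). GRMZM2G178106, beta-galactosidase 5-like, had 17.71 and 14.55 FPKM in dek, against 6.12 and 5.05 in WT (1.28 ± 0.137; edgeR quasi-likelihood adjusted p = 0.00592). With total-count scaling 11 of this list rose and 2 fell. Without dek A or dek B, 1 rose and 0 fell, the call of GRMZM2G178106 held, and those of GRMZM2G038281 and GRMZM2G417455 were lost (edgeR adjusted p of 0.0677 to 0.0870).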

How the data were processed

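Per the labels, total RNA was extracted by a CTAB method. The authors deposited 1 table for each library, with gene length, estimated counts (expected counts, rounded here) and FPKM (scaled by the authors to gene length and counted fragments, per the file headers). The submitters' processing notes name HISAT, Bowtie2, RSEM and GATK. The sources used here do not give the genome build or strandedness. Genes absent from a table were set to 0. Genes were tested with edgeR 4.0.16 in R 4.3.3 (quasi-likelihood, TMM factors of 1.128 and 1.097 for dek A and B and 0.895 and 0.903 for WT A and B, filterByExpr, 24624 genes), two-sided, with a Benjamini-Hochberg adjusted p under 0.05 as the threshold. The p-values refer to spread between pools. With 2 against 2 libraries a label permutation cannot go below 0.333. The fits were also run on simulated counts, in which all genes had the same relative spread between libraries and few were changed. That setting is unlike these data, so it does not measure the error of the calls given here.

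The members and lists were chosen with earlier results of these data known. Related lists and markers were matched by protein description alone, without the KEGG text named in the design, because that column pairs genes with unrelated terms. Named were up to 24 called members with the highest mean FPKM, the 6 most abundant members, the nearest member on each side of the threshold and up to 3 called genes per related list; every other member named was chosen after its values were seen. Ratios against 0 counts used a floor of 3 counts per group, and for 1 to 3 counts the interval was Clopper-Pearson (exact, 95%). Names and neighbours came from RefSeq (assembly Zm-B73-REFERENCE-NAM-5.0), with 66 members matched by model identifier, 17 by protein accession and 8 not matched. Alternatives were DESeq2 1.42.0 size factors and Wald test, total counts, limma 3.58.1 on log2(FPKM + 1) or log2(FPKM + 0.1), no filter, 50 counts in 2 libraries, a replicate block, members by either criterion alone and each library left out.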

Additional observations from a re-analysis of the deposited data

How the results depend on the processing

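Of the 26 called members, 26 kept their call with DESeq2 size factors, 24 with total counts, 25 in the DESeq2 Wald test, 22 in limma with either pseudocount, 24 without a filter and 19 with at least 50 counts in 2 libraries, which left 36 members tested. No called member changed sign in any alternative. GRMZM2G074517, GRMZM2G085260 and GRMZM2G384780 kept their call in every alternative fit. Higher and lower members numbered 4 and 7 with a replicate block by title letter, and 0 and 0 when members were taken by the GDSL description alone, where the median log2 fold change was 0.74; with total counts the median was 0.07. Leaving out 1 library gave 0 to 7 higher and 4 to 13 lower members. Over all genes, 1965 higher and 2178 lower became 4502 and 1279 with total counts, 4483 and 1326 with limma at a pseudocount of 1, 4145 and 1260 at 0.1, 811 and 1080 with the replicate block, and 255 to 1742 and 413 to 1915 without 1 library. Other lipases and esterases had 13 higher with total counts, 11 with limma at either pseudocount, 4 with the block, and 3 to 6 higher and 1 to 3 lower without 1 library. Cutin, suberin and wax genes had 0 higher with the block and 0 without any 1 library, and 1 to 3 lower without 1 library. Xyloglucan genes had 11 higher and 2 lower with total counts, 8 and 2 with limma at a pseudocount of 1, 5 and 2 at 0.1, 1 lower with the block, and 1 to 4 higher and 0 to 4 lower without 1 library. In the fits that leave 1 library in a group, the lone sample is assumed to vary like the other group. The cause of these changes was not tested. Same-letter libraries did not deviate together (r = -0.022 over 24624 genes, a correlation across genes, which are not independent replicates), and the labels do not tie letters to ears. The 33 members with too few counts were not tested.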
